A study of Mus musculus with 6 samples.

Results

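Replication-dependent histone genes encode the core histones H2A, H2B, H3 and H4 and the linker histones H1, which package newly made DNA. They lie in clusters, are transcribed mainly in S phase, and their transcripts typically end in a stem-loop in place of a poly(A) tail. Dividing progenitor cells of the early embryo need a steady supply of them, and their level is widely used as a sign of ongoing DNA replication. Of 65956 features that were not controls, 30 carried exactly 1 annotated symbol of these families, in either the older Hist naming or the newer naming, and these 30 features are described here by histone type and cluster. No 2 of them had identical profiles. They stood for 29 genes, since Hist1h4b had 2 features. By type, 5 were H1, 10 H2A, 9 H2B, 3 H3 and 3 H4; by cluster, 23 belonged to Hist1, 6 to Hist2 and 1 to Hist3. RefSeq lists 2 of them, Hist1h2aj and Hist3h2bb-ps, as pseudogenes.

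In the HOXB4 group, a retrovirus with the marker tdTomato drove the homeodomain transcription factor HOXB4, and the control cells did not express it. All 6 samples were mouse embryonic stem cells of the line named iRunx, differentiated as embryoid bodies to day 4 and sorted as Flk1+ and negative for PDGFRα, which the labels spell PDFGRα. The sources used here do not state whether the Runx gene of this line was induced, or whether control cells held an empty virus. There were 3 HOXB4 and 3 control arrays, from 3 independent experiments. The transgene could not be read, since the array's Hoxb4 feature is listed for Mir10a as well. Values are log2 summaries per feature, and the comparison asks how HOXB4 cells differed from controls in this gene family.

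Only the positive side of the sort could be read, since the feature listed for Pdgfra names a further gene. Kdr, which encodes Flk1, was at 14.33, 13.68 and 13.82 in HOXB4 1 to 3, against 13.72, 14.12 and 13.83 in control 1 to 3. All 10 markers of Flk1+ mesoderm and endothelium lay above the array's background median (3.06 to 3.15) in every array, with list means of 9.83 to 11.65 in HOXB4 cells and 10.02 to 11.15 in controls. The arrays did not divide by group alone. Of these 10 markers, 8 were higher in HOXB4 1, HOXB4 3 and control 2 than in the other arrays, Etv2 was lower in these 3, and Kdr followed neither order. The list had means of 11.65, 9.83 and 11.00 in HOXB4 1 to 3 and 10.05, 11.15 and 10.02 in control 1 to 3. This split of the arrays was chosen after the values were seen. The share of all features that follow it was not counted, so how unusual it is cannot be judged here. The means of 4 erythroid markers ran from 6.90 to 8.68 in HOXB4 cells and from 7.30 to 8.68 in controls, and 3 of the 4 were lower in those same 3 arrays than in the others. Means of other lists did not overlap between the groups, although few members were apart: 6 cardiac markers had means of 6.70 to 7.68 in HOXB4 cells and 7.94 to 8.36 in controls, and 7 markers of the PDGFRA lineage had means of 5.28 to 5.56 in HOXB4 cells and 5.62 to 5.76 in controls. Lower without overlap were 2 of the 6 cardiac markers and 1 of the 7 of the PDGFRA lineage (10.2% of all features). Tnnt2 (0.26), Foxc1 (0.23) and Foxc2 (0.09) had differences above 0. Of the cardiac markers, Hand1 was at -3.22, the lowest difference of all 31258 features tested, with HOXB4 2 among the controls. Tbx20 was at -1.89 and Hand2 at -1.21, while Nkx2-5 (-0.12) and Myh6 (-0.09) lay near 0. The 6 markers of undifferentiated cells had means of 6.29 to 7.34 in HOXB4 cells and 6.20 to 6.56 in controls. All 6 had differences above 0, where 59.8% of all features lay below 0, and their median was 0.61. Of the 6, 2 lay higher without overlap (3.28% of all features), while Sox2 was at 0.02. The 5 endoderm markers had means of 4.31 to 4.62 in HOXB4 cells and 4.37 to 4.52 in controls. Every marker measured lay above the background median in all 6 arrays, though several, Afp, Meox1 and Hba-x among them, were close to it. The part of these cell types in the histone differences was not tested. In bulk samples, fewer cells in S phase and less histone RNA per such cell cannot be told apart.

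Promoter sequences were found in RefSeq (GRCm38.p6) for 25 of the 29 genes, as the 250 bases before and 50 after the start. Motifs known from histone promoters were searched on both strands, and no motif's letters contain another's. The CCAAT box (CCAAT), bound by NF-Y, was present in 24 of 25, against 37.41% of all 32851 promoters of this length. The octamer ATTTGCAT, the site through which Oct factors act on H2B genes, was present in 5 of 7 H2B promoters and 3 of 9 H2A promoters, against 1.74% of all. The H1 box (AAACACA), an element of linker histone promoters, stood in 4 of 5 H1 promoters, against 7.18%, and the TATA box (TATAAA) in 14 of 25, against 13.62%. Matches counted at any position in the window, and only some promoters hold TATAAA just before the start. Those of Hist2h2ab, H2ac20, Hist1h1d, Hist1h1a, Hist1h2aa and Hist1h1b hold it on the gene's own strand, beginning at -42 to -26 from the start. In Hist2h2aa1, Hist1h2ak, Hist1h2ah and Hist1h4a it lies after the start. In Hist1h2bb it begins at -10 and in Hist1h2ba at -94. In Hist1h2bp and Hist1h2bk it lies far before the start on the opposite strand. In 2 cases the windows of an H2A and an H2B gene overlapped head to head, Hist1h2bk with Hist1h2ah over 277 bases and Hist1h2aa with Hist1h2ba over 220 bases. These genes therefore share promoter sequence and their motif counts are not separate. The windows of Hist2h2aa1 and Hist2h2aa2 also hold nearly the same sequence, at a shift, so their counts are not separate either. That of Hist2h2aa2 ends before the TATAAA seen in Hist2h2aa1. The 5 promoters below show these elements in capitals, on either strand, each 5′ to 3′ in the direction of the named gene: both shared H2A and H2B windows, an H2B gene of the Hist2 cluster with CCAAT box and octamer close together, an H1 gene with H1 box, CCAAT boxes and TATA box, and an H3 gene with 5 CCAAT boxes.
Hist1h2bk, chr13:22035571-22035870, plus strand: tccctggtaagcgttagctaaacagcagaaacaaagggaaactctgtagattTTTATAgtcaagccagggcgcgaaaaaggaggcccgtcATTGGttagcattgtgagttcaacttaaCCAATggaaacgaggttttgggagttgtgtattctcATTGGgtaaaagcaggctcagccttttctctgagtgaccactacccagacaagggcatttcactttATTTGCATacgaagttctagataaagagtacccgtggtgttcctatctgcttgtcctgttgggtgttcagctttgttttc
Hist1h2aa, chr13:23934187-23934486, plus strand: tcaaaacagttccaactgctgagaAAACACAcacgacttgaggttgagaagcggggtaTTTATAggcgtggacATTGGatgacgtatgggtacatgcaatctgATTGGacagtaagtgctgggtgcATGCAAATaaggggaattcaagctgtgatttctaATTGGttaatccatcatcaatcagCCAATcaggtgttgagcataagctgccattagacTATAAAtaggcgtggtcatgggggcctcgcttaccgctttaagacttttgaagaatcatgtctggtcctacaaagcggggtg
Hist2h2bb, chr3:96269450-96269749, plus strand: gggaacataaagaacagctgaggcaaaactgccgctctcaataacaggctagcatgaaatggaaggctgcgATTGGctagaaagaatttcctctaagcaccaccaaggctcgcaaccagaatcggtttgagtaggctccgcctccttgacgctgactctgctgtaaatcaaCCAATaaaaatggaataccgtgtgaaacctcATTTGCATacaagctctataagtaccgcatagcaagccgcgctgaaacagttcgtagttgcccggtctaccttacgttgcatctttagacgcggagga
Hist1h1b, chr13:21780576-21780875, minus strand: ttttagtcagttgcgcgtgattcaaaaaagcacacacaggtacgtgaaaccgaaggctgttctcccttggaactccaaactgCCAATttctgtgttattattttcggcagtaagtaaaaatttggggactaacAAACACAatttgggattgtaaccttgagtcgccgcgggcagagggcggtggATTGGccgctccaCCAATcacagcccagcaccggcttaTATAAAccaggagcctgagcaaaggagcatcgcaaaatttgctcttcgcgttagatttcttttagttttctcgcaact
Hist1h3c, chr13:23745472-23745771, minus strand: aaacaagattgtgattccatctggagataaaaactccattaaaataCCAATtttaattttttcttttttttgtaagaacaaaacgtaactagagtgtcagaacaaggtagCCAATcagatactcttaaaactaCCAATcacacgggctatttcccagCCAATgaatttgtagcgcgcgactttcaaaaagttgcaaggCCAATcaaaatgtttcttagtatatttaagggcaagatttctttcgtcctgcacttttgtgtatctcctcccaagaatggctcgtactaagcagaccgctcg
A match of letters is a description of the sequence, and binding was not measured.

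Most histone features lay lower in HOXB4 cells, by small amounts, and none passed the test. The difference (HOXB4 minus control) was below 0 for 26 of 30 features, where 59.8% of the 31258 features with 1 gene lay below 0. The median difference was -0.19 on the log2 scale, against -0.04 over all features tested, and the range ran from -0.64 for Hist1h2bp to 0.59 for Hist3h2bb-ps. At a Benjamini-Hochberg adjusted p of 0.05, limma called 0 histone features, as it called 0 (0%) of all features, and the smallest adjusted p among histones was 0.608. At an unadjusted p of 0.05, 6 histone features were lower (5.89% of all features were) and 0 were higher (2.26%). All 3 HOXB4 values lay below all 3 control values for 5 features, where 10.2% of all features did so, and above them for 0, where 3.28% did so. These 5 were Hist1h3f, Hist2h2ab, Hist1h2aj, Hist2h2aa2 and Hist1h2ah, the last 2 named after their values were seen. The SE of a single histone feature's difference had a median of 0.18.

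**Figure D1:**
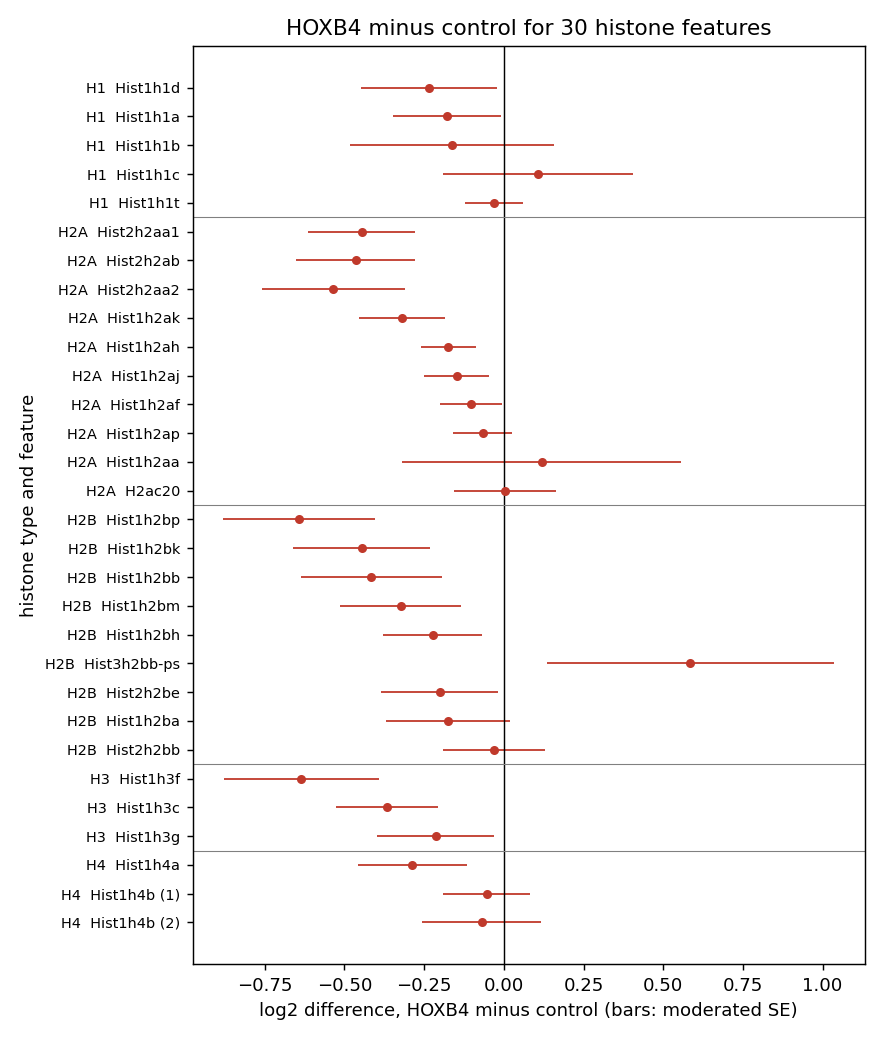
Log2 difference, HOXB4 minus control, for the 30 histone features (rows, by type), with moderated SE as bars and n = 3 arrays a group. Of the 30 points, 26 lie left of 0, and Hist3h2bb-ps stands farthest to the right at 0.59.

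A single array stood high across the family. Control 2 held the highest value of the 6 arrays for 27 of 30 histone features, while it was the highest array for 15.2% of all features. Of the other histone features, 2 were highest in HOXB4 3 (14.2% of all features) and 1 in control 1 (32.7%), with none in HOXB4 1 (13.5%), HOXB4 2 (12%) or control 3 (12.4%). The median deviation of the histone features from their own means was -0.18, -0.17 and 0.02 in HOXB4 1 to 3, against 0.09, 0.44 and -0.13 in control 1 to 3. Control 3 thus lay within the range of the HOXB4 arrays. The lowest value was in HOXB4 1 for 11 features, in HOXB4 2 for 10 and in control 3 for 6. Without control 2 the median difference was -0.08 with 21 of 30 below 0 (all features -0.04, 60.44% below 0), and without control 3 it was -0.36 with 28 of 30 below 0. Without HOXB4 3 it was -0.29, with 29 of 30 below 0. The histone features spread more among controls than among HOXB4 arrays, with a median SD of 0.15 in HOXB4 cells and 0.31 in controls, against 0.13 in HOXB4 cells and 0.15 in controls over all features.

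**Figure D2:**
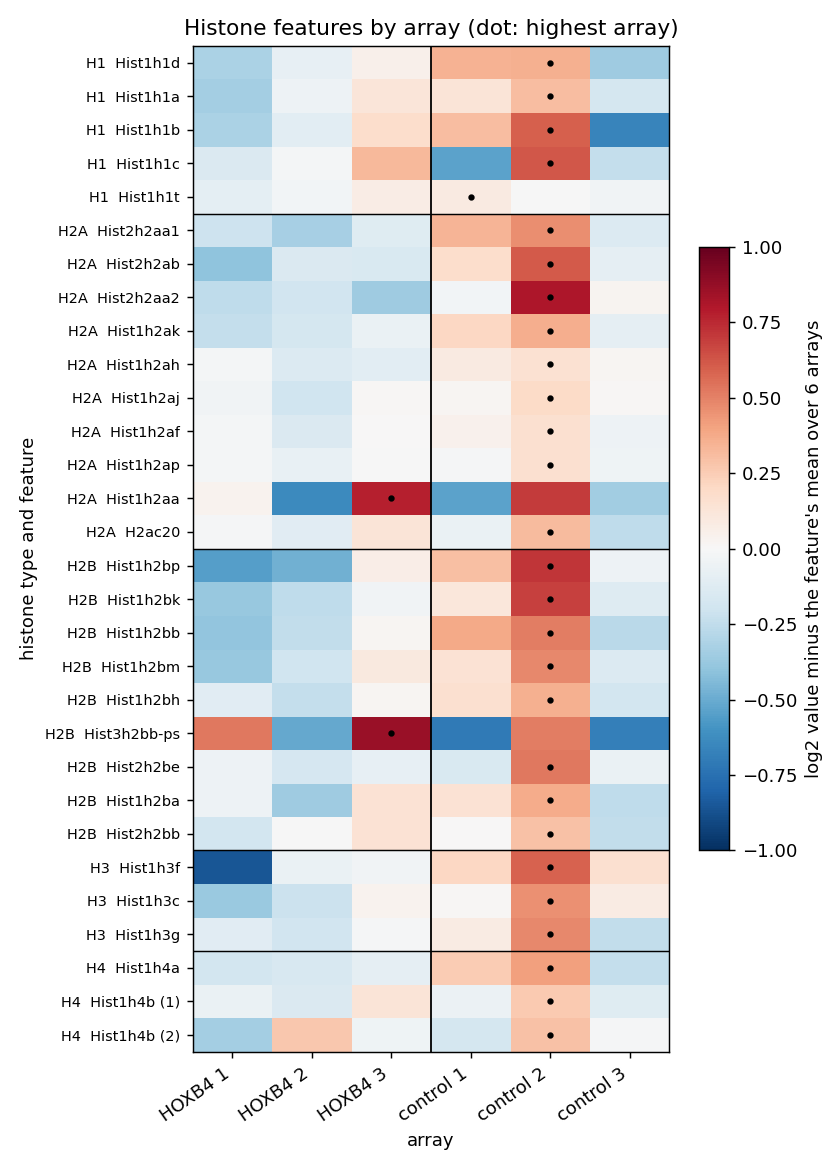
Log2 value minus the feature's mean over 6 arrays (colour) for the 30 histone features (rows, by type) in the 3 HOXB4 and 3 control arrays (columns); a dot marks the array with the highest value. The column of control 2 is high for nearly all rows and holds 27 of the 30 dots.

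**Figure D3:**
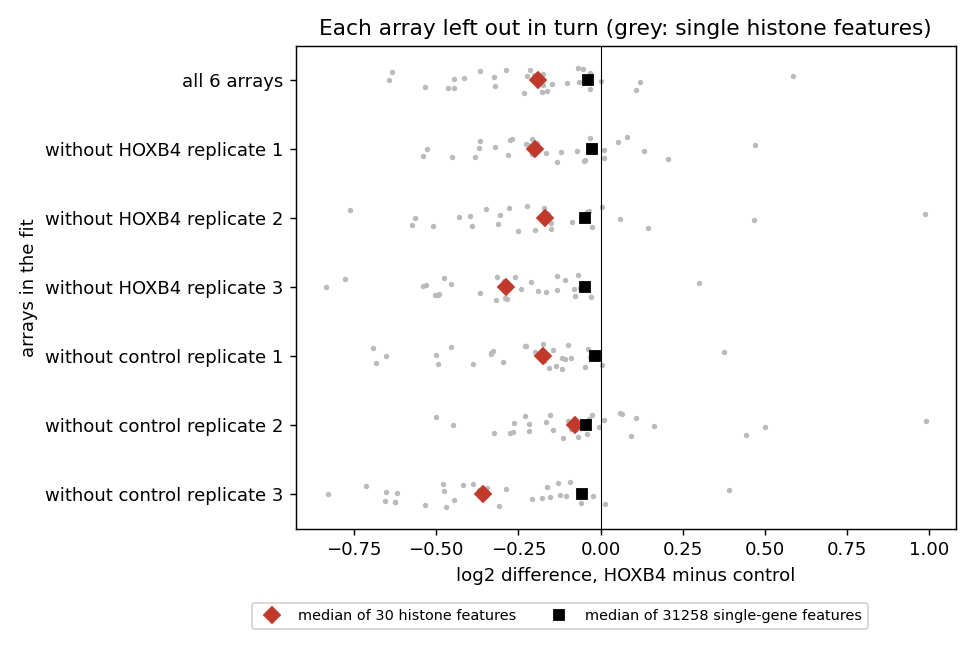
Log2 difference, HOXB4 minus control (horizontal axis), with all 6 arrays and with each array left out (rows). The median of the 30 histone features (diamond) runs from -0.36 without control 3 to -0.08 without control 2, while the median of all 31258 features (square) stays between -0.06 and -0.02.

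The linker histones H1 bind the DNA that enters and leaves the nucleosome. Their median difference was -0.16, with 4 of 5 features below 0 (59.8% of all features) and a smallest adjusted p of 0.765 in limma. Of the 5, 0 lay lower without overlap (10.2% of all features) and 0 higher (3.28%). The median ran from -0.31 without control 3 to -0.04 without control 2 when 1 array was left out. Hist1h1b (H1f5 in current naming), the brightest of the 5, was at 12.80, 13.01 and 13.29 in HOXB4 1 to 3, against 13.42, 13.71 and 12.45 in control 1 to 3. Control 3 had the lowest value and the groups overlapped, so the mean of 13.03 ± 0.25 in HOXB4 cells and 13.19 ± 0.66 in controls (SD, n = 3 each) gave a difference of -0.16 (SE 0.32), or 0.09 without control 2. Hist1h1a (H1f1) was at 7.85, 8.15 and 8.32 in HOXB4 cells, against 8.33, 8.51 and 8.02 in controls. Hist1h1d (H1f3) was at 5.34, 5.58 and 5.71 in HOXB4 cells, against 6.01, 6.02 and 5.30 in controls. Control 3 was the lowest control in both, among the HOXB4 arrays for Hist1h1a and below them for Hist1h1d, and the differences were -0.18 (SE 0.17) and -0.23 (SE 0.21). Hist1h1c (H1f2), a somatic linker histone, was the H1 feature on the other side of 0. It stood at 8.62, 8.75 and 9.10 in HOXB4 cells, against 8.23, 9.39 and 8.53 in controls, a difference of 0.11 (SE 0.30) that was -0.14 without control 1 and -0.03 without HOXB4 3. Hist1h1t, the testis-specific linker histone, was the dimmest of the 30 features at 3.27 to 3.44 in HOXB4 cells and 3.32 to 3.45 in controls, close to the background median.

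H2A is the core histone that pairs with H2B, and its genes are often arranged head to head with an H2B gene. The H2A features had a median difference of -0.16, with 8 of 10 below 0 (59.8% of all features). Of the 10, 4 lay lower without overlap (10.2% of all features), Hist1h2aj among them only in the third decimal. The median lay between -0.22 and -0.12 when 1 array was left out. Hist2h2ab (H2ac21) was at 8.78, 9.03 and 9.02 in HOXB4 1 to 3, against 9.35, 9.79 and 9.09 in control 1 to 3. Every HOXB4 array lay below every control, by a narrow margin at control 3, and the difference was -0.47 (SE 0.19), which is 1.38-fold lower, or -0.27 without control 2. Hist2h2aa1 (H2ac18) was at 5.52, 5.40 and 5.61 in HOXB4 cells, against 6.07, 6.20 and 5.60 in controls. Here control 3 lay just below HOXB4 3, and the difference was -0.45 (SE 0.17). Each had an adjusted p of 0.608 in limma. H2ac20, next to Hist2h2ab in the Hist2 cluster, stood at 14.48, 14.38 and 14.62 in HOXB4 cells, against 14.43, 14.81 and 14.24 in controls, a difference of 0.002 (SE 0.16). Levels of separate features are not compared, since brightness also depends on the probes.

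The brightest histone features were Hist1h2aj (H2ac14) and Hist1h2af (H2ac10), near the top of the array's scale. Hist1h2aj was at 19.27, 19.11 and 19.32 in HOXB4 cells, against 19.33, 19.50 and 19.32 in controls, a difference of -0.15 (SE 0.10). Its groups were apart only in the third decimal, between HOXB4 3 and control 3. Hist1h2af was at 19.07, 18.94 and 19.09 in HOXB4 cells, against 19.13, 19.24 and 19.04 in controls, a difference of -0.10 (SE 0.10). RefSeq lists Hist1h2aj as a pseudogene, and H2A genes of the Hist1 cluster are nearly identical in coding sequence, so signal from other copies cannot be told apart in these features. The same holds in some measure for every histone feature here. Hist2h2aa2, Hist1h2ak, Hist1h2ah and Hist1h2ap, the remaining H2A features of Hist1 and Hist2 apart from Hist1h2aa, had differences of -0.54, -0.32, -0.18 and -0.07.

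H2B features showed a median difference of -0.22, which ran from -0.37 without control 3 to -0.10 without control 2. Of the 9, 8 lay below 0 (59.8% of all features). Without overlap, 0 lay lower (10.2%) and 0 higher (3.28%). Hist1h2bp (H2bc22) had the lowest difference of all 30 features. It was at 5.40, 5.47 and 6.01 in HOXB4 1 to 3, against 6.25, 6.66 and 5.90 in control 1 to 3, and HOXB4 3 lay above control 3. The means were 5.63 ± 0.34 in HOXB4 cells and 6.27 ± 0.38 in controls (SD, n = 3 each), a difference of -0.64 (SE 0.24) or 1.56-fold, with an adjusted p of 0.608 in limma. Hist1h2bk (H2bc12), whose promoter is shown above, was at 10.24, 10.36 and 10.58 in HOXB4 cells, against 10.73, 11.30 and 10.49 in controls, a difference of -0.45 (SE 0.21), or -0.22 without control 2. Its head-to-head partner Hist1h2ah, an H2A gene, differed by -0.18 (SE 0.09). Hist2h2bb (H2bc18) lay flatter, at 12.48, 12.66 and 12.81 in HOXB4 cells and 12.67, 12.96 and 12.42 in controls, with a difference of -0.03 (SE 0.16). Hist1h2bb, Hist1h2bm, Hist1h2bh and Hist2h2be had differences of -0.42, -0.32, -0.22 and -0.20.

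Hist1h2aa and Hist1h2ba encode TH2A and TH2B, variants known from germ cells, and share a promoter window. Hist1h2ba was at 10.15, 9.84 and 10.35 in HOXB4 1 to 3, against 10.35, 10.57 and 9.95 in control 1 to 3, a difference of -0.18 (SE 0.20). Hist1h2aa was at 10.45, 9.79 and 11.20 in HOXB4 cells, against 9.88, 11.12 and 10.07 in controls, a difference of 0.12 (SE 0.44) that was -0.24 without HOXB4 3. HOXB4 3, control 2 and HOXB4 1 were its high arrays. Hist3h2bb-ps (H2bu1-ps), the H2B pseudogene of the Hist3 cluster, had the widest range of all 30 features, 1.57 on the log2 scale. It was at 9.68, 8.65 and 10.02 in HOXB4 cells, against 8.45, 9.67 and 8.48 in controls. The same 3 arrays were high, and the difference of 0.59 (SE 0.45, adjusted p of 0.720 in limma) was 0.99 without control 2 and 0.99 without HOXB4 2. Of the 10 Flk1+ mesoderm and endothelium markers, 8 were also higher in these 3 arrays than in the others. The split was chosen after the values were seen, its share over all features was not counted, and the part of the markers in these 2 features was not tested. Hist3h2ba, the protein-coding neighbour of Hist3h2bb-ps, had no feature of its own. A feature listed for both genes differed by only 0.01 (SE 0.30).

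**Figure D4:**
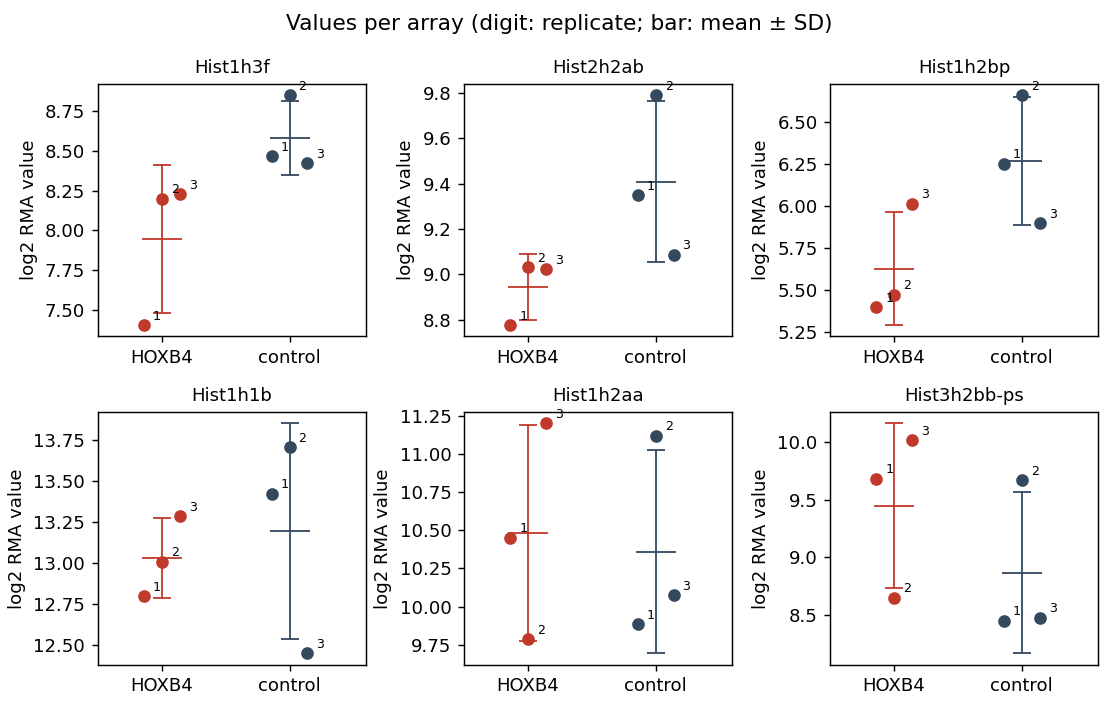
Log2 values per array for 6 histone features, HOXB4 left and control right (points with replicate number; bars are mean ± SD, n = 3). The groups do not overlap for Hist1h3f and Hist2h2ab, and for Hist3h2bb-ps HOXB4 1, HOXB4 3 and control 2 lie between 9.67 and 10.02 while the other arrays lie between 8.45 and 8.65.

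H3 forms with H4 the tetramer at the centre of the nucleosome. All 3 H3 features had differences below 0 (59.8% of all features did), with a median of -0.37 that was -0.23 without control 2. Hist1h3f (H3c7) was at 7.41, 8.20 and 8.23 in HOXB4 1 to 3, against 8.47, 8.85 and 8.42 in control 1 to 3. The groups did not overlap, HOXB4 1 stood far below the other 5 arrays, and the difference was -0.64 (SE 0.24, adjusted p of 0.608 in limma), or -0.37 without HOXB4 1. Hist1h3c (H3c3), whose promoter holds 5 CCAAT boxes, was at 9.74, 9.89 and 10.15 in HOXB4 cells, against 10.12, 10.57 and 10.20 in controls. HOXB4 3 overlapped the controls, and the difference was -0.37 (SE 0.16). Hist1h3g (H3c8) was at 7.73, 7.65 and 7.83 in HOXB4 cells, against 7.93, 8.33 and 7.60 in controls, a difference of -0.21 (SE 0.18) that shrank to -0.03 without control 2. By type, H4 had the median closest to 0, at -0.07. Over 3 features this is the value of 1 of them, the dim second feature of Hist1h4b. Hist1h4a (H4c1) was at 6.32, 6.34 and 6.41 in HOXB4 cells, against 6.75, 6.91 and 6.26 in controls, a difference of -0.29 (SE 0.17). The features of Hist1h4b (H4c2) differed by -0.05 (SE 0.14) and -0.07 (SE 0.19). The second of them was dim, at 3.80 to 4.41 in HOXB4 cells and 3.96 to 4.43 in controls, and its annotation adds a further gene ID, so it is not read as H4c2 alone. The H4 median was 0.06 without control 2 and -0.22 without HOXB4 2, both values of the second Hist1h4b feature, and -0.03 without HOXB4 1.

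By cluster, the median difference was -0.18 over the 23 Hist1 features (21 below 0) and -0.32 over the 6 Hist2 features (5 below 0). Over all features 59.8% lay below 0. Without control 2 the medians of these clusters were -0.09 and -0.13. The difference between clusters was not tested. All 6 Hist2 features and 21 of 23 Hist1 features were highest in control 2 (15.2% of all features). The Hist3 feature was highest in HOXB4 3. Many histone transcripts could not be assigned to 1 gene: a further 39 features listed 2 to 13 genes each, at least 1 of them a histone gene. Most list the same genes as the 30 features above or near-identical copies of them, so they are no independent evidence. In a fit over all 65956 features, 36 of these 39 had differences below 0 (55.6% of all features did), 11 had no overlap and lay lower (8.53%), and 6 were lower at an unadjusted p of 0.05 (4.42%), with a smallest adjusted p of 0.344 in limma. Control 2 was the highest array for 37 of the 39, against 14.9% of all features. The lowest difference was in a feature listed for Hist1h2bc, Hist1h2be and Hist1h2bg, chosen for mention after its value was seen. It was at 11.93, 12.47 and 12.35 in HOXB4 1 to 3, against 13.12, 13.60 and 12.58 in control 1 to 3, a difference of -0.85 (SE 0.27).

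Factors that switch on histone genes or process their transcripts also leaned lower in HOXB4 cells, though none passed the test. Of the 18 measured, 14 had differences below 0, with a median of -0.23; 5 lay lower without overlap and 1 higher. Over all features, 59.8% lay below 0, 10.2% lower without overlap and 3.28% higher. Slbp, which binds the stem-loop of histone transcripts, was at 8.90, 9.27 and 8.77 in HOXB4 1 to 3, against 9.31, 9.34 and 9.55 in control 1 to 3. The groups did not overlap, and the difference was -0.42 (SE 0.15). Ccne2, the cyclin whose kinase complex activates histone transcription at S phase entry, was at 10.05, 10.71 and 10.36 in HOXB4 cells, against 11.13, 11.20 and 10.71 in controls, a difference of -0.64 (SE 0.20) with HOXB4 2 just above control 3. Cpsf2, a subunit of the complex that cleaves histone transcripts, differed by -0.42 (SE 0.13). Hinfp, an activator of H4 genes, was 1 of 4 factors above 0 and the 1 that lay higher without overlap, at 8.51, 8.47 and 8.49 in HOXB4 cells, against 8.17, 8.27 and 8.34 in controls, a difference of 0.23 (SE 0.09). All 4 had an adjusted p of 0.608 in limma.

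Genes of S phase, which encode the replication machinery and its supply of nucleotides, leaned lower too. Of the 20 measured, 18 lay below 0 with a median of -0.16, and 11 lay lower without overlap, where 59.8% and 10.2% of all features did so. Their list mean was 11.33, 11.40 and 11.30 in HOXB4 1 to 3, against 11.47, 11.61 and 11.52 in control 1 to 3. All 3 HOXB4 means lay below all 3 control means, control 3 included, and control 2 was the highest array for 8 of the 20 genes (15.2% of all features). Rrm2, a subunit of the reductase that makes deoxynucleotides, was at 13.21, 13.18 and 13.16 in HOXB4 cells, against 13.59, 13.58 and 13.46 in controls, a difference of -0.36 (SE 0.08). Cdc6, which loads the replicative helicase, differed by -0.59 (SE 0.14), Fen1, a flap nuclease, by -0.37 (SE 0.09) and Prim1, a primase subunit, by -0.33 (SE 0.11). Each had an adjusted p of 0.608 in limma. Leaving out any 1 array moved the list median between -0.19 and -0.13.

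**Figure D5:**
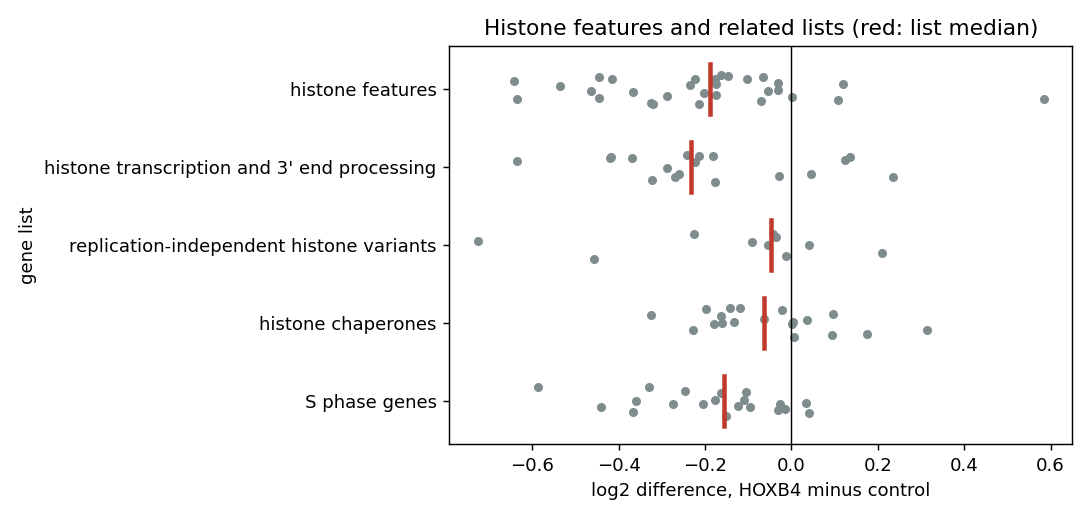
Log2 difference, HOXB4 minus control (horizontal axis), for each of the 30 histone features and each measured gene of 4 related lists (rows); red bars are list medians. The medians are -0.19 for histones, -0.23 for transcription and processing factors, -0.05 for variants, -0.06 for chaperones and -0.16 for S phase genes.

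Replication-independent histone variants are typically, though not in every case, made throughout the cell cycle and from polyadenylated transcripts. They showed a median difference of -0.05 over 10 measured genes, 8 of them below 0 (59.8% of all features), and of -0.13 without control 1. The macroH2A genes H2afy3 and H2afy2 stood apart with -0.46 (SE 0.08) and -0.73 (SE 0.13), while the third macroH2A gene, H2afy, was at -0.04 (SE 0.11). H2afz, which encodes H2A.Z, was at 14.78, 14.87 and 14.84 in HOXB4 1 to 3, against 15.16, 15.02 and 14.98 in control 1 to 3, a difference of -0.22 (SE 0.09). These 3 genes of the 10 lay lower without overlap, as 10.2% of all features did. H1foo, the oocyte linker histone, was near background at 3.75 to 3.90 in HOXB4 cells and 3.87 to 3.98 in controls. Histone chaperones, which carry histones to chromatin, had a median of -0.06 over 19 genes, and of -0.14 without control 2. Of the 19, 11 lay below 0 (59.8% of all features) and 8 above. Daxx, a chaperone of the variant H3.3, differed by -0.32 (SE 0.12) and its partner Atrx by 0.31 (SE 0.14). Chaf1a, a subunit of the assembly factor that works at replication forks, differed by -0.18 (SE 0.09) and Hirip3 by -0.14 (SE 0.08). None of these lists had a member with an adjusted p below 0.608 in limma.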

How the data were processed

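Each array measured 1 sample, grouped by its title. Per the labels' protocols, 100 ng of RNA went into the Affymetrix WT PLUS labelling. The deposited log2 values were made by the authors with Affymetrix Expression Console and RMA, per the submitters' processing notes, which give no version or build here. RMA equalises the arrays, so a shift common to most genes would be partly removed. The 23 background features (medians 3.06 to 3.15) and the 3 arrays a group limit the precision.

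Of 65956 features, 31258 named 1 gene, 1492 several and 33206 none listed, with symbols updated through RefSeq (GRCm38.p6). Using limma 3.58.1 (R 4.3.3), HOXB4 minus control was estimated on the 31258, two-sided, with Benjamini-Hochberg adjustment and without a replicate block; errors are moderated. The steps were tested on simulated data. Same-numbered arrays did not deviate together (correlations of -0.40, -0.59 and -0.35). With deviations taken from the means of 3 arrays, this cannot show whether numbers pair samples, so the pairing is unknown. The histone features and lists were chosen with earlier results of these data known. Described in full were, per type, the 3 brightest features and the 2 with the smallest p in each direction, the widest in range and the dimmest; of each related list, up to 4 genes with the smallest p, from the brightest feature of a gene. Alternatives were 2 scalings, other feature sets and priors, array weights, the replicate number as a block and each array left out. Software also included Python 3.11.15 with numpy 2.4.6, pandas 2.3.3 and, for plots, matplotlib 3.10.9.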

Additional observations from a re-analysis of the deposited data

How the results depend on the processing

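The median histone difference stayed below 0 in the main setting and all 15 alternatives. It ran from -0.36 to -0.08 when 1 array was left out and from -0.21 to -0.18 otherwise; cyclic loess gave -0.18, the filter on dim features (kept by 28 of 30 features, and which 1 group alone can meet) -0.21, and the brightest feature per gene -0.20. Of the 30 features, 20 lay below 0 in every setting. limma called 0 features at an adjusted p of 0.05 in every setting but 1: 0 to 47 when 1 array was left out, the 47 without HOXB4 2 and none of them a histone feature. The histone features lower at an unadjusted p of 0.05, 6 in the main fit (5.89% of all features), were 3 with cyclic loess (5.14%), 4 with the filter on dim features (6.54%), 4 with a trended prior (5.40%), 1 without moderation (5.05%), 0 without HOXB4 1 (2.70%), 1 without HOXB4 2 (8.43%), 4 without HOXB4 3 (2.92%), 2 without control 1 (2.93%), 1 without control 2 (4.60%), 13 without control 3 (6.97%) and 6 with array weights (7.40%). With the replicate number as a block the median was -0.19, limma called 0 features, and 3 histone features were lower at that level; over all features 894 were lower and 422 higher, against 1842 and 706 without the block. Over all non-control features 2917 were lower and 3061 higher. Histone features higher at that level were 1 without HOXB4 2 (1679 of 31258 features) and 1 without control 2 (664 of 31258). In every other setting 0 were higher. With cyclic loess 53.05% of all features and 24 of 30 histone features lay below 0.

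Features near 0 turned sign, and Hist2h2be, at -0.20, was at 0.01 without control 2. With cyclic loess Hist1h1t was at 0.0083 and Hist2h2bb at 0.0217, and with array weights H2ac20 was at -0.0091. When 1 array was left out, Hist1h1b ran from -0.534 to 0.094, Hist1h1c from -0.14 to 0.44, Hist1h1t from -0.0777 to 0.0095, Hist1h2aa from -0.24 to 0.50, H2ac20 from -0.12 to 0.16, Hist2h2bb from -0.163 to 0.107, and the features of Hist1h4b from -0.134 to 0.0641 and from -0.223 to 0.0813. The causes were not tested.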
